A study of Mus musculus with 31 samples.

Results

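The genes of the AMPA and NMDA receptor subunits were followed through mRNA, ribosome footprints and translational efficiency in the cortex of 4 mouse genotypes. The members were taken by gene symbol: 4 AMPA receptor genes (Gria1, Gria2, Gria3 and Gria4) and 6 NMDA receptor genes (Grin1, Grin2a, Grin2b, Grin2c, Grin2d and Grin3a), that is 10 of the 20436 gene symbols counted. All 10 passed the filter on low counts in both assays. Besides wild-type animals (WT), the groups were mutants lacking a functional Fmr1 gene (labelled FXS, for fragile X syndrome), mutants of Rps6kb1, the gene of the S6 kinase S6K1 (labelled S6K1), and animals carrying both deficiencies (labelled DKO). All were between postnatal days 29 and 34, and strain and sex are not given in the sources used here. The labels do not describe the alleles, and they name no Cre driver and no treatment.

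AMPA and NMDA receptors are the glutamate-gated ion channels that carry most fast excitatory transmission in the cortex. AMPA receptors are assembled from the products of Gria1 to Gria4, and the edited product of Gria2 makes them largely impermeable to calcium. NMDA receptors need the product of Grin1 together with a GluN2 subunit, encoded by Grin2a to Grin2d, or a GluN3 subunit such as that of Grin3a; GluN2B predominates early in cortical development and GluN2A joins it as synapses mature. Fmr1 encodes FMRP, an RNA-binding protein that associates with many mRNAs of the synapse, and S6K1 is a kinase downstream of mTORC1 that phosphorylates parts of the translation machinery.

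Footprints are the mRNA fragments that ribosomes shield from nuclease, and were sequenced in 15 libraries: 5 of FXS, 4 of WT, and 3 each of DKO and S6K1. Polyadenylated mRNA was sequenced in 16 libraries, 4 of each genotype. Total counts ran from 12.1 to 17.3 M (units of the CPM scale) per mRNA library and from 16.6 to 34.9 M per footprint library. Each mRNA batch (5 to 8 in the labels) held every genotype once, whereas footprint batches 1 to 4 were unbalanced, and batch 1 held only 1 S6K1 and 1 DKO library. Fmr1 footprints averaged 117 on the counts-per-million scale (CPM, with TMM scaling of library sizes) in WT and 133 in S6K1, against 7.85 in FXS and 10.5 in DKO. Rps6kb1 footprints averaged 28.9 CPM in WT and 32.5 in FXS, against 10.2 in S6K1 and 11.6 in DKO, so both targeted genes followed the labels. Markers of cerebellum stood apart in 2 WT libraries. Footprint replicate 4 of WT, in batch 4, held 6.30 CPM of Cbln3, 10.9 of Gabra6 and 15.6 of Pcp2, against at most 0.606, 2.22 and 0.657 in any other footprint library. The WT mRNA library of batch 5 held 2.67 CPM of Gabra6 and 3.83 of Pcp2, against at most 0.0608 and 0.905 in any other mRNA library. That the libraries come from separate animals is not stated, so p-values measure the spread between these libraries, which may in part be technical.

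The clearest property of these genes was present in every genotype: the ratio of footprints to mRNA of the NMDA receptor genes ran from the 1.26th to the 99.97th percentile of genes in WT. This ratio was computed as the mean footprint CPM over the mean mRNA CPM, and is given on the log2 scale relative to the median of the 13654 genes tested in both assays. The coding-sequence counts of both assays refer to the same gene, so gene length cancels in it if both assays cover that sequence alike. Whether they do was not tested. The ratio describes 1 gene at a time and was not tested between genes. The middle 90% of genes, from the 5th to the 95th percentile, lay between -2.12 and 1.74 in WT.

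Grin2b, encoding GluN2B, had the highest value of the 10. Its mRNA measured 13.1, 8.91, 8.83 and 12.6 CPM in the WT libraries of batches 5 to 8, and its footprints 302, 283, 236 and 222 CPM in the WT libraries of batches 2, 3, 4 and 4. These levels gave a log2 ratio of 4.94 in WT, rank 4 from the top of all 13654 genes. The rank was 4 in FXS and 5 in both S6K1 and DKO. Above Grin2b in WT stood Hist1h1e (8.15), Hist1h4h (5.67) and Dpysl2 (5.37). Whether such ratios were high through many footprints or through poor recovery of the mRNA was not tested. Grin2b mRNA rested on 85 to 283 counts per library, so counting error is small beside a ratio of that size. The gene lies at chr6:135713221-136173615 (GRCm38.p6), a span of 460.4 kb.

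Grin2a, encoding GluN2A, also stood high, at a log2 ratio of 2.57 in WT, the 98.8th percentile of genes. Its percentile was between 98.6 and 99.2 in the other genotypes. Grin2a occupies chr16:9567901-9996083. The GluN2 gene Grin2c lay at the opposite end. Its mRNA measured 53.9, 73.7, 73.0 and 82.6 CPM in WT, whereas its footprints measured only 6.11, 8.99, 4.15 and 4.69 CPM. The log2 ratio was -3.21 in WT, the 1.26th percentile, and stayed below the 5th percentile of WT genes in FXS (-3.40), S6K1 (-3.22) and DKO (-4.00). Grin2c lies at chr11:115249169-115267297, a span of 18.13 kb, and its footprints rested on 60 to 239 counts per library.

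Grin2c is known for its expression in cerebellar granule cells, in glia and in a subset of interneurons. The granule cell gene Cbln3 reached at most 0.297 CPM in any mRNA library. Gabra6, another, was highest in the 2 WT libraries named above, where Grin2c measured 4.69 CPM in footprints and 53.9 CPM in mRNA, the lowest of the WT mRNA libraries. The WT log2 ratio of Grin2c was -3.11 without that footprint library and -3.32 without that mRNA library. The other members took middle positions. Gria3 (1.00), Gria2 (0.92) and Grin1 (0.90) had log2 ratios between the 80th and 83rd percentiles in WT. Gria1 (0.07), Grin3a (-0.11), which encodes the glycine-binding subunit GluN3A, and Gria4 (-0.28) lay around the median gene, and Grin2d, encoding GluN2D, lay at -0.80. The extreme pairings of WT libraries of Gria1, Gria4 and Grin3a reached both sides of 0, and the order of these neighbours is not separated beyond the spread of the libraries.

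**Figure D1:**
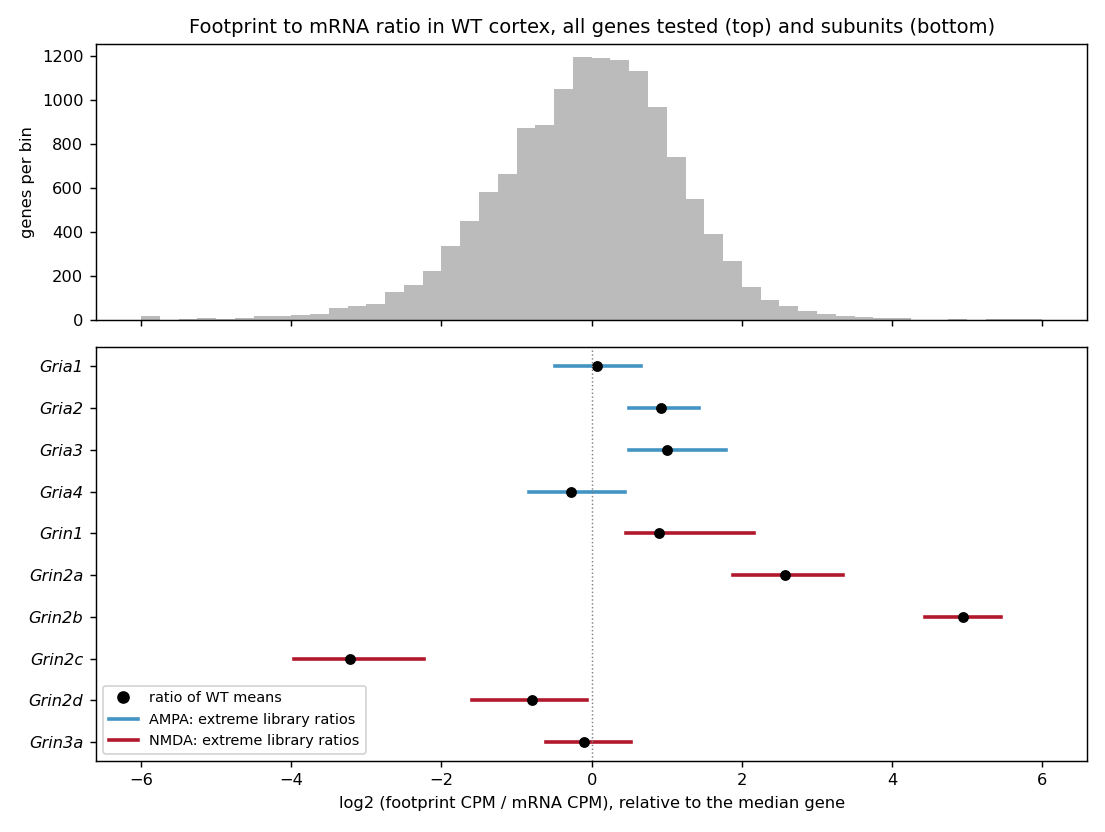
The top panel counts genes by log2 footprint to mRNA ratio in WT, relative to the median gene, with genes beyond -6 or 6 placed in the outer bins. In the bottom panel black points are ratios of WT means and lines run from the lowest footprint library over the highest mRNA library to the reverse. Grin2b (4.94) and Grin2c (-3.21) sit in opposite tails, with their lines far apart.

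Grin2a and Grin2b, whose balance shifts as cortical synapses mature, were also compared within single libraries. In WT mRNA, Grin2a had 2.95 ± 0.503 counts per Grin2b count (SD, n = 4), and in WT footprints 0.565 ± 0.0492 (n = 4). Grin2a therefore held more counts than Grin2b in mRNA, and fewer in footprints. Counts were not divided by coding length, so the ratio is not one of molecules, and only its difference between assays or genotypes is read here. Over all genotypes, the lowest mRNA library had a ratio of 1.87 and the highest footprint library 0.645, so the assays did not overlap. Mean footprint ratios of the mutants were 0.518 ± 0.0753 (FXS, n = 5), 0.530 ± 0.0492 (S6K1, n = 3) and 0.518 ± 0.0391 (DKO, n = 3). Each lay within 1 WT SD of the WT mean, but that SD spans batches. In batch 2 mutant ratios were 0.509 to 0.529, against 0.572 in WT. In batch 4 they were 0.450 to 0.475, against 0.525 and 0.532 in WT. In batch 3 S6K1 (0.579) and DKO (0.536) lay below WT (0.632), and FXS (0.645) above. Batch 1 held no WT, and the ratio was not tested.

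For the main AMPA pair, Gria1 and Gria2, the mRNA ratio averaged 0.598 ± 0.0379 in WT and between 0.586 and 0.628 in the mutants (n = 4 each). In footprints the WT average was 0.327 ± 0.0263 (n = 4), beside 0.359 ± 0.0266 for FXS (n = 5). It was 0.291 ± 0.0476 for S6K1 and 0.273 ± 0.0365 for DKO (n = 3 each). The mean footprint ratio was highest in FXS and lowest in DKO. The lowest values of S6K1 (0.242) and DKO (0.231) were the 2 libraries of batch 1, which holds neither WT nor FXS. FXS lay above WT in batches 2 and 4, and below it in batch 3 (0.319 against 0.343). DKO lay below WT in batches 3 (0.291) and 4 (0.296), and beside S6K1 (0.294) in batch 3.

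**Figure D2:**
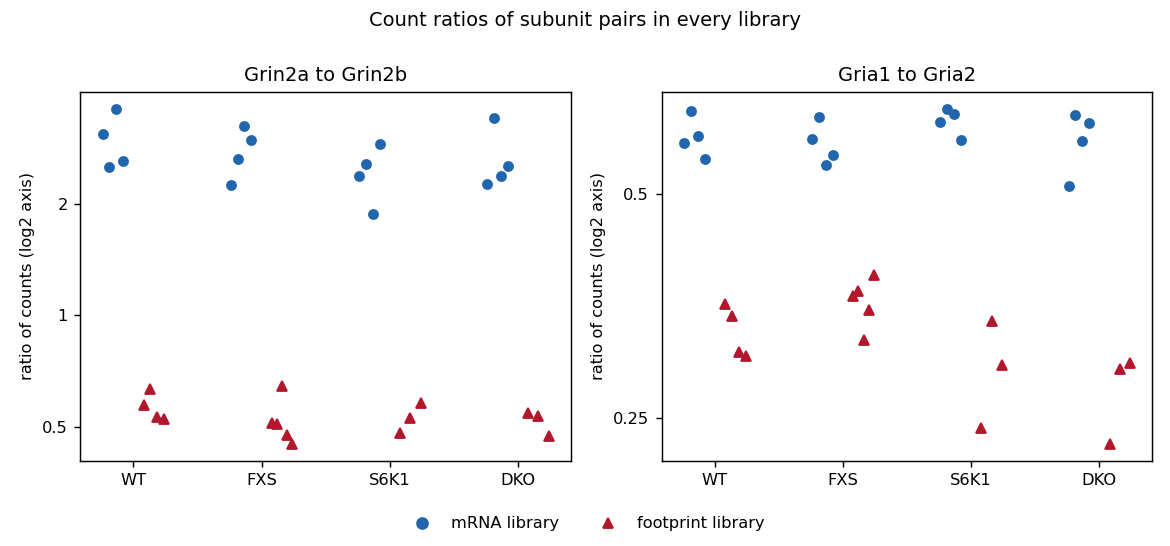
Each point is 1 library, with the ratio of raw counts of 2 subunit genes on a log2 axis, mRNA libraries as circles and footprint libraries as triangles. For Grin2a to Grin2b the 4 genotypes share a gap between assays, from 0.645 at most in footprints to 1.87 at least in mRNA.

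None of the 10 genes passed an adjusted p of 0.05 in any of 18 tests with edgeR's quasi-likelihood method, which covered 6 contrasts in each of mRNA, footprints and translational efficiency (TE). TE was tested as the footprint contrast minus the mRNA contrast in 1 model. The smallest adjusted p of the 180 member tests was 0.0587, and 21 of the 180 had an unadjusted p under 0.05, beside 10.9% of the same tests over all genes. Standard errors of the genotype contrasts (log2) ran from 0.07 to 0.17 in mRNA, from 0.07 to 0.28 in footprints and from 0.10 to 0.27 in TE, largest for Grin2b in mRNA and for Grin2c in footprints and TE. No member had 2 groups whose library values did not overlap in any of the 5 comparisons of genotypes. In mRNA every genotype held 1 library of batch 5, the lowest of its group for every member but Grin2a and Grin2b. That library widened those groups, so their overlap in mRNA says little about genotype. For Grin2a and Grin2b it did not lie apart in every group. Grin2a in FXS, for example, measured 35.2 CPM in batch 5 and from 26.1 to 38.3 CPM in the other batches. Among all genes, the share whose libraries did not overlap ran from 1.60% (S6K1 against WT) to 6.15% (DKO against WT) in mRNA and from 1.74% (FXS against WT) to 16.3% (DKO against WT) in footprints.

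**Figure D3:**
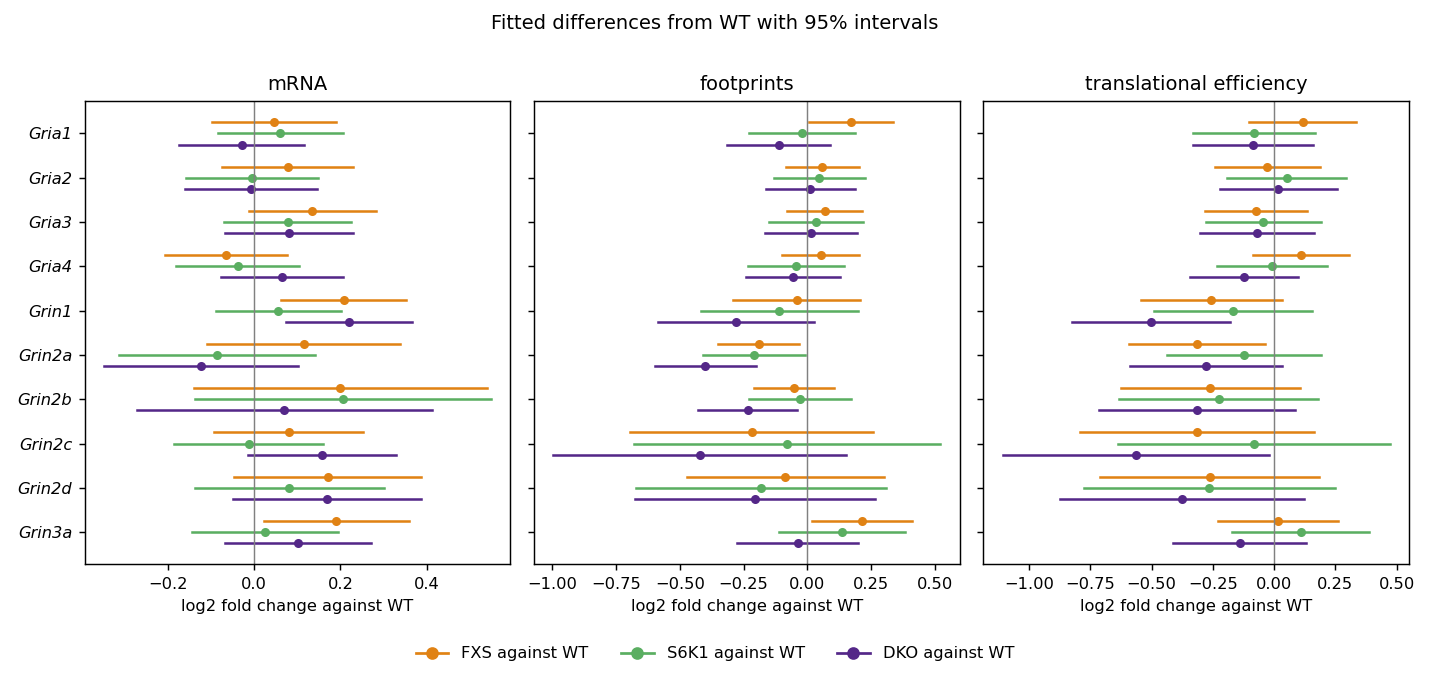
Points are fitted log2 fold changes against WT and lines their 95% intervals, for FXS, S6K1 and DKO, with a separate horizontal scale in each panel. In DKO the 6 NMDA receptor genes all lie below 0 in footprints and TE, while the 4 AMPA receptor genes stay within -0.12 and 0.02 in those measures.

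DKO against WT gave the estimates nearest to the threshold, and they concerned NMDA receptor genes. No member was called in this comparison, against 5.23% of all genes in mRNA, 0.366% in footprints and 4.85% in TE. Estimates of the 6 NMDA genes were above 0 for 5 of 6 in mRNA (median log2 fold change 0.13, all genes -0.00327) and below 0 for 6 of 6 in footprints (median -0.26, all genes -0.01). TE, which combines these 2 measures, was below 0 for 6 of 6 (median -0.35, all genes -0.02). The 4 AMPA genes had medians of 0.03 in mRNA, -0.02 in footprints and -0.08 in TE. In all genes, 52.0% of footprint estimates and 52.1% of TE estimates were below 0. No test of the difference between the families was made. In whole cortex, fewer cells of a type and less RNA per cell cannot be told apart.

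Grin1, at chr2:25291177-25319187, encodes the subunit that every NMDA receptor contains. Its mRNA measured 266, 554, 593 and 594 CPM in the WT libraries of batches 5 to 8, and 312, 709, 673 and 642 CPM in the DKO libraries of the same batches. DKO was the higher in each of the 4 batches, by 0.11 to 0.36 on the log2 scale, although the groups overlapped. The fitted log2 fold change was 0.22 ± 0.0705 (SE, adjusted p = 0.0680). Grin1 footprints measured 706, 931, 638 and 664 CPM in WT (batches 2, 3, 4 and 4) and 667, 543 and 568 CPM in DKO (batches 1, 3 and 4). The batch 1 DKO library lay among the WT libraries, and the other DKO libraries lay below them. The footprint estimate was -0.28 ± 0.143 (adjusted p = 0.328).

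The TE estimate of Grin1 was -0.50 ± 0.157 (SE), with an adjusted p of 0.0587. It rested on a few footprint libraries. Without WT footprint replicate 2, the highest of all at 931 CPM, the footprint estimate was -0.09 and the TE estimate -0.31 (adjusted p = 0.316), and without DKO footprint replicate 2 they were -0.12 and -0.34 (adjusted p = 0.309). Without footprint batch 1 the TE estimate was -0.58, with an adjusted p of 0.0268 in edgeR. Most markers of excitatory neurons had the sign of Grin1 in DKO, with 5 of 7 above 0 in mRNA and 6 of 7 below 0 in footprints and in TE. The 7 markers, all detected, summed to 2689 to 3904 CPM in WT mRNA and 2926 to 4487 in DKO mRNA, and to 3359 to 3991 CPM in WT footprints and 2810 to 3963 in DKO footprints. In DKO mRNA 3 of 7 were called higher, Tbr1 and Slc17a7 among them. Tbr1 and Slc17a7 were called lower in TE, 2 of 7, with a median TE estimate of -0.48 over the list. Of all genes in this comparison, 3.17% were called higher in mRNA and 3% lower in TE. Markers of other cells were also called in DKO. Of 8 oligodendrocyte markers, 4 were called lower in footprints (median -0.70), where 0.337% of all genes were, and 6 in TE (median -0.74). Their summed footprint level ran from 2620 to 3762 CPM in WT and from 1773 to 2549 CPM in DKO, without overlap. Of 5 markers of oligodendrocyte precursors, 2 were called higher in mRNA and 1 lower in TE. The 5 endothelial markers had a median footprint estimate of -0.55 with none called, on sums of 4.46 to 10.5 CPM in WT and 3.70 to 10.4 CPM in DKO. In mRNA 1 of the 5 was called lower, where 5.23% of all genes were called in either direction. The 5 hippocampus markers were all below 0 in footprints (median -0.34) and in TE (median -0.29), with none called. Their summed footprint level ran from 140 to 216 CPM in WT and from 134 to 146 CPM in DKO. Of 7 striatum markers, 5 were above 0 in footprints (median 0.15), with none called. The part of these markers in the NMDA receptor estimates was not tested.

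Grin2a was the member nearest to the threshold in footprints. Its footprints measured 173, 179, 125 and 116 CPM in WT (batches 2, 3, 4 and 4) and 157, 129 and 91.7 CPM in DKO (batches 1, 3 and 4). The groups overlapped across batches, whereas within batches 3 and 4 DKO lay lower by -0.47 and -0.40 on the log2 scale. The fitted value was -0.40 ± 0.0926 (SE), with an adjusted p of 0.0756 in edgeR and a 95% interval of -0.60 to -0.20. Grin2a mRNA was -0.12 ± 0.109 in the same comparison (adjusted p = 0.537), and TE -0.28 ± 0.151 (adjusted p = 0.249). Grin2a alone among the 6 NMDA genes had an mRNA estimate below 0 in DKO.

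Grin2b footprints in DKO measured 288, 241 and 194 CPM, against 222 to 302 CPM in WT. DKO lay lower in both shared batches, each by -0.24, and the fitted value was -0.23 ± 0.0915 (adjusted p = 0.226). Grin2c footprints measured 2.40, 5.99 and 3.27 CPM in DKO, against 4.15 to 8.99 in WT, and its estimate of -0.42 ± 0.268 was too imprecise to separate from 0 (adjusted p = 0.422). The TE estimate of Grin2c was the lowest of the members at -0.56 ± 0.263 (adjusted p = 0.184). Grin2d (-0.21) and Grin3a (-0.04) had footprint estimates within 1 SE of 0.

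Granule and Purkinje cell genes of the cerebellum were measured beside Grin2c. Cbln3, Gabra6 and Pcp2 footprints reached at most 0.0292, 0.120 and 0.200 CPM in DKO, and were at least 0.143, 0.258 and 0.372 CPM in WT. Every DKO library thus lay below every WT library, on 0 to 5 counts per gene in DKO. Of all genes, 7.22% were lower in DKO footprints without overlap. Cbln1 overlapped, at 2.68 to 3.54 CPM in DKO and 3.08 to 7.57 CPM in WT. In FXS Cbln3, Gabra6 and Pcp2 reached at most 0.318, 0.582 and 0.635 CPM. None of the 5 listed cerebellum markers was called, and 4 of 5 had footprint estimates below 0 in DKO and 5 of 5 in FXS. Their sum, mostly Calb1, which cortical neurons also express, ran from 421 to 533 CPM in WT footprints and from 493 to 768 CPM in DKO. Without WT footprint replicate 4, the footprint estimate of Grin2c in DKO was -0.40 (adjusted p = 0.495) and its TE estimate -0.55 (adjusted p = 0.229). Without that library Grin2a footprints were at -0.42 (adjusted p = 0.102) and Grin1 TE at -0.51 (adjusted p = 0.0738), while Grin3a footprints were at 0.00785, which leaves 5 of 6 NMDA genes below 0.

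The footprint estimates of the AMPA genes in DKO lay between -0.11 and 0.01. The 95% interval of the footprint fold change was -0.16 to 0.19 for Gria2, the subunit that limits calcium entry, -0.17 to 0.19 for Gria3, -0.24 to 0.13 for Gria4 and -0.32 to 0.09 for Gria1. The raw group means carry the library of batch 1. Gria2 footprints averaged 575 ± 95.5 CPM in WT (n = 4) and 701 ± 230 CPM in DKO (n = 3), but the DKO library of batch 1 held 954 CPM, and those of batches 3 and 4 held 642 and 506 CPM beside 675, 505 and 483 CPM in the WT libraries of those batches. The fitted value was 0.01 ± 0.0823. Gria1 had a footprint estimate of -0.11 ± 0.0950 (adjusted p = 0.550) and Gria4 of -0.06 ± 0.0861 (adjusted p = 0.757).

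**Figure D4:**
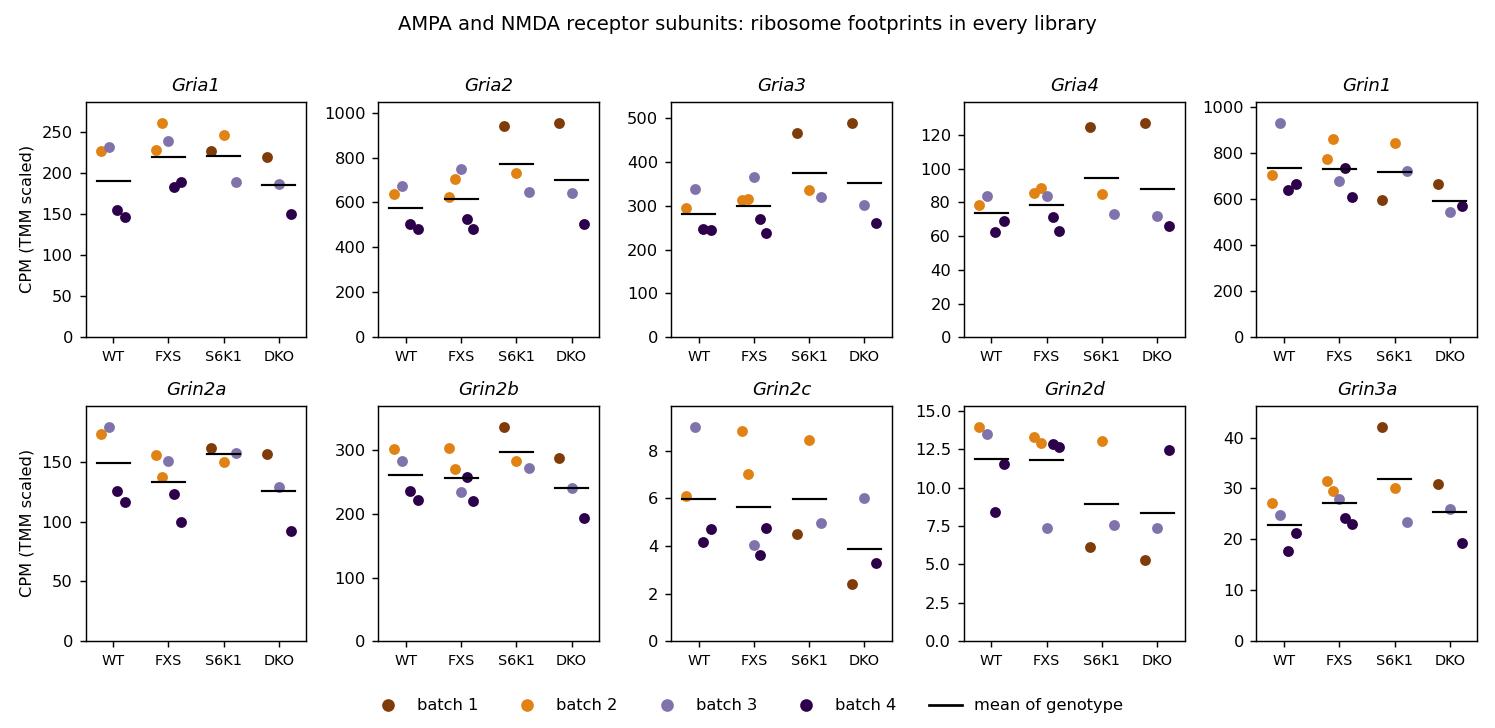
Each point is the footprint level of 1 library in CPM on a linear axis from 0, coloured by batch, and black lines are genotype means. The 2 libraries of batch 1, 1 of S6K1 and 1 of DKO, carry the highest values of Gria2, Gria3 and Gria4 and the lowest of Grin2d.

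FXS against WT had no called member, against a background of 0.155% of genes in mRNA, 0.165% in footprints and 0.0952% in TE. This comparison and DKO against WT share the WT libraries, so their estimates are not independent. mRNA estimates of the NMDA genes were above 0 for 6 of 6, from 0.08 to 0.21 (median 0.18, all genes -0.00899), and those of the AMPA genes for 3 of 4 (median 0.06). Grin1 mRNA measured 303, 709, 677 and 634 CPM in FXS, above the WT library of the same batch in each of 4 batches by 0.09 to 0.36. Its estimate was 0.21 ± 0.0705 (SE, adjusted p = 0.231). Grin3a mRNA measured 28.0, 35.1, 38.4 and 40.8 CPM in FXS and 24.0, 32.2, 34.1 and 34.5 CPM in WT, and was likewise higher in 4 of 4 batches (0.19 ± 0.0815, adjusted p = 0.331).

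In FXS footprints the members divided. Grin3a was at 0.22 ± 0.0917 (adjusted p = 0.452) and Gria1 at 0.17 ± 0.0774 (adjusted p = 0.492), each higher in 3 of 3 shared batches. Grin2a was at -0.19 ± 0.0741 (adjusted p = 0.396) and lower in 3 of 3, by -0.25 to -0.13. These 3 genes had unadjusted p under 0.05, as did 9.87% of all genes. TE estimates were below 0 for 5 of 6 NMDA genes (median -0.26, all genes -0.01), and Grin2a was the only member with an unadjusted p under 0.05 (-0.31 ± 0.136, adjusted p = 0.323), beside 13.4% of all genes. AMPA genes were at a median of 0.04.

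S6K1 against WT had no called member, against 0.0211% of genes in mRNA, 0.00717% in footprints and 0.0293% in TE. mRNA estimates lay between -0.09 (Grin2a) and 0.21 (Grin2b, 0.21 ± 0.166), and TE estimates between -0.26 (Grin2d, -0.26 ± 0.249) and 0.11 (Grin3a), with Grin2b at -0.23 ± 0.197. Grin2a footprints measured 162, 150 and 157 CPM in S6K1 (batches 1, 2 and 3) and lay below WT in both shared batches, with an estimate of -0.21 ± 0.0934 (adjusted p = 0.551). It was the only member with an unadjusted p under 0.05 in this comparison, beside 8.74% of genes in footprints, 7.37% in mRNA and 7.51% in TE.

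The comparisons among mutants asked whether loss of S6K1 altered the Fmr1-deficient state and the reverse. No member was called in DKO against FXS (background 0.0281% in mRNA, 0.0143% in footprints, 0.0146% in TE) or in DKO against S6K1 (0.387%, 0.00717% and 0.00732%). Footprint estimates were below 0 for 10 of 10 members in both, with medians of -0.19 and -0.13 (all genes -0.00740 and -0.00176). Of all genes, 51.8% and 50.4% were below 0. Single batches were less uniform. Against FXS, Gria2, Gria3, Grin2b and Grin2c were lower in only 1 of 2 shared batches. Against S6K1, only Gria1, Grin2a, Grin2b and Grin2d were lower in both. Both comparisons share the DKO libraries. Against FXS, Gria1 footprints had an estimate of -0.28 ± 0.0937 (adjusted p = 0.762), with DKO lower by -0.31 and -0.35 in the shared batches, and Grin3a one of -0.25 ± 0.110 (adjusted p = 0.762). Grin2a mRNA was at -0.24 ± 0.108 (adjusted p = 0.491). Against S6K1, Grin1 had an mRNA estimate of 0.16 ± 0.0705 (adjusted p = 0.278) and a TE estimate of -0.34 ± 0.159 (adjusted p = 0.328).

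The interaction asks whether the effect of losing Fmr1 differs with and without S6K1. edgeR called no gene in it (0% in each measure), and its unadjusted p was under 0.05 for 3.5% of genes in mRNA, 3.07% in footprints and 4.14% in TE. DESeq2 called 0 genes in mRNA, 5 in footprints and 2 in TE, limma none, and neither called a member. Grin3a footprints had the smallest p of the members, at -0.39 ± 0.149 (unadjusted p = 0.0198, adjusted p = 1.00). Grin2a footprints had an interaction of -0.000269 ± 0.120, and the estimates of Fmr1 loss were -0.19 both with S6K1 (FXS against WT) and without it (DKO against S6K1).

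In mRNA, every member differed more between batch 5 and the other batches than between any 2 genotypes. Batch 5 lay below batches 6 to 8 in 8 of the 10 members. Grin1 averaged 281 ± 31.7 CPM over the 4 libraries of batch 5 and 639 ± 52.5 over the 12 of batches 6 to 8, a mean log2 difference of -1.19, at the 0.929th percentile of all genes (median 0.02). The 4 AMPA genes differed by -0.45 to -0.64, and Grin2c, Grin2d and Grin3a by -0.47 to -0.65. Grin2a (0.27) and Grin2b (0.40) went the other way. Since every genotype is in every mRNA batch, genotype contrasts were fitted within batches.

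**Figure D5:**
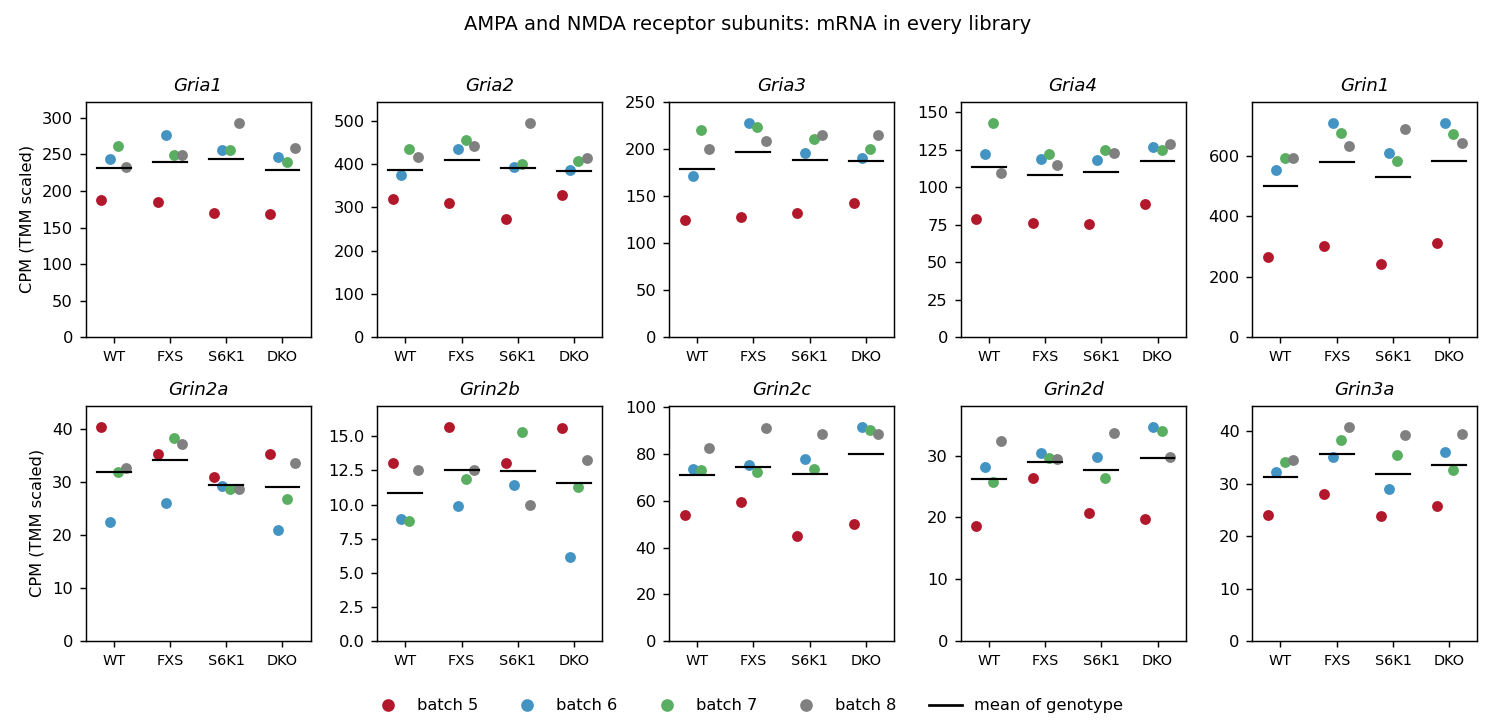
Each point is the mRNA level of 1 library in CPM on a linear axis from 0, coloured by batch, and black lines are genotype means. Batch 5 is lowest in all genotypes for Grin1 (244 to 312 CPM, other batches 554 to 709) and not for Grin2a or Grin2b.

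Footprint batch 1 also stood apart for the AMPA genes other than Gria1. Gria2 footprints measured 940 and 954 CPM there and 483 to 749 CPM in batches 2 to 4, Gria3 467 and 489 against 238 to 366 CPM, and Gria4 125 and 127 against 62.7 to 88.5 CPM. Grin2d measured 6.13 and 5.28 CPM in batch 1 and 7.34 to 13.9 CPM elsewhere. Without batch 1, DKO against WT gave footprint estimates of 0.01 for Gria2, 0.01 for Gria3 and -0.05 for Gria4, close to those with it.

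After batch means were removed, the genes most like each member over the 16 mRNA libraries were found by Pearson's r of log2 CPM. These r values are descriptive, since libraries share depth and composition. Grin1 was most like Pcdh1 (r = 0.98), Celsr2 (0.97) and Grn (0.97), and these pairs also had r of 0.74, 0.85 and 0.82 over the 15 footprint libraries. Grin2c was most like Bcan (0.94), Tril (0.91) and Pbxip1 (0.90), with 0.85, 0.81 and 0.66 in footprints. For the other members the footprint r was mostly well below the mRNA r. All these genes were picked for a high mRNA r, so some drop follows from the choice. Other gene pairs were not compared, and nothing is read from the drop. The nearest gene of Gria1 was Rbm12 (mRNA r = 0.87, footprint r = -0.28), that of Gria2 Ptprk (0.88, 0.66), that of Gria3 Chrm3 (0.90, 0.41) and that of Gria4 Frmd3 (0.81, -0.11). The nearest gene of Grin2a was Cobl (0.88, 0.56), that of Grin2b Plk4 (0.85, 0.11), that of Grin2d Sympk (0.88, 0.29) and that of Grin3a Abcc10 (0.88, -0.32). Between members, the highest footprint r were those of Gria2 with Gria3 (0.85) and Grin2a with Grin2b (0.79).

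The proteins that assemble, carry and modify these receptors were counted in 4 lists, and calls fell only in DKO against WT. In that comparison 3.17% of all genes were called higher in mRNA and 3% lower in TE. A single call in a list of 19 or 20 is near these shares, and nothing is read from it. Of 20 AMPA receptor auxiliary and assembly proteins, 1 was called higher in mRNA, the acyltransferase Porcn (0.30 ± 0.0862, adjusted p = 0.0428), and 2 were called lower in TE, Cpt1c (-0.44 ± 0.131, adjusted p = 0.0478) and Frrs1l, an assembly factor (-0.46 ± 0.127, adjusted p = 0.0403). The median of the list was 0.14 in mRNA and -0.26 in TE. In footprints none was called, and the smallest p were those of Cnih2, an AMPA receptor chaperone, in FXS (0.34 ± 0.0916, adjusted p = 0.208) and of Cacng5 in S6K1 (1.28 ± 0.424, adjusted p = 0.412). Both TE calls were lost without mRNA batch 5 and Porcn remained called.

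Of 9 kainate and delta receptor genes and Neto proteins, Grik3, a kainate receptor subunit, was called higher in mRNA (0.61 ± 0.108, adjusted p = 0.00444) and lower in TE (-0.78 ± 0.160, adjusted p = 0.0135). Grid1, a delta receptor subunit, was called lower in TE (-0.59 ± 0.129, adjusted p = 0.0190). Both TE calls held without mRNA batch 5 and without footprint batch 1. The median TE estimate of the list was -0.46, below that of the NMDA genes. In footprints none was called; Grid1 was at -0.36 ± 0.101 (adjusted p = 0.122).

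Of 19 tested anchoring and trafficking proteins, Kif17, a kinesin that carries Grin2b-containing vesicles, was called higher in mRNA (0.30 ± 0.0898, adjusted p = 0.0482), a call lost without mRNA batch 5. None was called in TE, where Kif17 was at -0.42 ± 0.144 (adjusted p = 0.0792) in DKO and Dlg3 at -0.20 ± 0.0856 (adjusted p = 0.312) in FXS. In footprints none was called, and Grip2 was at 0.36 ± 0.143 in S6K1 (adjusted p = 0.495) and Dlg1 at -0.17 ± 0.0740 in FXS (adjusted p = 0.452).

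Of 19 kinases, phosphatases and other enzymes, 2 were called higher in DKO mRNA: Camk2b, a subunit of the calcium/calmodulin kinase that phosphorylates AMPA receptors (0.25 ± 0.0637, adjusted p = 0.0270), and Src, a tyrosine kinase acting on NMDA receptors (0.31 ± 0.0679, adjusted p = 0.0132). Without mRNA batch 5 the call of Camk2b was lost and that of Src held. None was called in footprints or TE. In footprints Csnk2a1 was at 0.18 ± 0.0845 in DKO (adjusted p = 0.283), and in TE Ppp3ca was at -0.32 ± 0.106 in S6K1 (adjusted p = 0.536) and Prkcb at -0.26 ± 0.0990 in FXS (adjusted p = 0.269). Every mRNA and TE call of these 4 lists was lost when batch was left out of the model.

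The authors' deposited tables cover FXS and DKO against WT, and in each of the 6 tables the 10 members had the sign found here. These tables call 2 members at an adjusted p under 0.05. In the authors' deposited table, Grin2a footprints in DKO had a log2 fold change of -0.40 with an adjusted p of 0.00589. In the authors' deposited table, Grin1 mRNA in DKO had a log2 fold change of 0.21 with an adjusted p of 0.0385. For TE, the authors' deposited table gave Grin1 in DKO a log2 fold change of -0.49 with an adjusted p of 0.573.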

How the data were processed

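The deposited tables give raw counts per gene symbol over coding sequence, per the file headers and names; the submitters' processing notes name cutadapt 2.0, Bowtie2, TopHat2, RSEM and the build mm10, without their roles. The authors' deposited comparison tables hold a mean of normalized counts (a signal), log2 fold changes with standard errors, a test statistic (a score) and p-values.

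Genes were filtered with filterByExpr by genotype and scaled by TMM factors, and genotype plus batch was fitted to all libraries of an assay with edgeR 4.0.16 (R 4.3.3, robust quasi-likelihood F-test). This left 14215 genes in mRNA, 13953 in footprints and 13654 for TE, which was fitted over both assays with batch nested in assay and TMM over the shared genes. Calls are at a p under 0.05 after Benjamini-Hochberg adjustment across the whole table. Intervals use the SE derived from F. The model was also run on simulated counts with changes planted in DKO alone, and nothing is read from that run here. Whether both assays used the same animals is not given in the sources used here.

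Batch numbers come from the labels. After centring on genotype, the 24 same-batch mRNA pairs had a median correlation of 0.27 (23 above 0.1) and other pairs -0.14; the 20 footprint pairs had 0.30 (16 above 0.1) against -0.10. No replicates were near-identical (chi-square per degree of freedom at least 4.69). Gene positions are RefSeq's on GRCm38.p6.

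Members and gene lists were chosen with earlier results of these data known. Named genes were all members, the 3 genes most like each (mean mRNA CPM of 5 or more, prior count 2; the text names the nearest, and all 3 for Grin1 and Grin2c), and in each pathway list and measure up to 4 called genes or else the 2 with the smallest p against WT. Some genes that this rule or a marker list would name are not reported here. Alternatives were RLE factors, DESeq2 1.42.0, limma 3.58.1 (voom), no batch term, no filter, only the contrasted genotypes and leaving out each library; leaving out mRNA batch 5 or footprint batch 1, and another TE scaling, were added after seeing the data.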

Additional observations from a re-analysis of the deposited data

Results flagged for a closer look

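Of 60 groups of 4 or 5 libraries checked for a library far from the others, 8 were flagged, where chance gives about 1 in 20. In 7 of them the far library was replicate 1 of mRNA, which is batch 5, and it was low. Gria4 mRNA was 88.5 CPM in DKO replicate 1 (next lowest 125), 76.3 in FXS replicate 1 (next 115) and 75.4 in S6K1 replicate 1 (next 118). Grin1 mRNA was 312 CPM in DKO replicate 1 (next 642) and 266 in WT replicate 1 (next 554). Grin2c mRNA was 49.9 CPM in DKO replicate 1 (next 88.4), and Gria2 mRNA 311 CPM in FXS replicate 1 (next 434). The remaining one was Grin2d in footprints, at 7.39 CPM in FXS replicate 3 of batch 3 (next 12.7).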

How the results depend on the processing

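Of the 3510 alternative fold changes of members, none lost a call, since none had one, and none was called in the other direction. Grin1 became the 1 member called in DKO mRNA with DESeq2, in FXS mRNA with only those genotypes fitted, and in DKO TE with DESeq2, with only those genotypes fitted and without footprint batch 1. Grin2a became the 1 member called in DKO footprints with DESeq2. Leaving out 1 library gave 0 to 1 called members in DKO mRNA, in DKO TE and in DKO against S6K1 mRNA, each time Grin1, and 0 elsewhere. Over all alternatives, Grin1 TE in DKO ran from -0.62 to -0.31 (adjusted p from 0.0241 to 0.436), Grin1 mRNA had adjusted p from 0.0284 to 0.874, and Grin2a footprints ran from -0.43 to -0.24 (adjusted p from 0.0102 to 0.477).

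With no replicate block, that is with the batch term left out, no member was called, and Grin1 TE in DKO was -0.53 (adjusted p = 0.436), Grin1 mRNA 0.22 (0.874) and Grin2a footprints -0.24 (0.477).

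Small estimates changed sign freely: 36 of 60 mRNA, 27 of 60 footprint and 26 of 60 TE results kept their direction in every alternative, and the largest that did not was 0.14, 0.22 and 0.26 in size. For the WT footprint to mRNA ratio, Grin2b stayed between 4.61 and 5.05 and Grin2c between -3.48 and -2.88. Gria1 lay below 0 with genes of mean CPM 5 or more (-0.12), with mRNA batches 6 to 8 (-0.0167), and ran from -0.0411 to 0.18 when 1 WT library was left out. With WT mRNA batch 5 alone, Gria4 was 0.19, Grin3a 0.21, Grin1 1.76 and Gria3 1.46. Levels per coding length were not run. Depth limited Grin2b mRNA (85 to 283 counts) and Grin2c footprints (60 to 239 counts).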
